A study of Bos taurus with 53 samples.

Results

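The genes described here encode the enzymes that build long-chain fatty acids and then desaturate and lengthen them. They were chosen by name: of 10 listed symbols (FASN, ACACA, SCD, SCD5, FADS1, FADS2, FADS3, ELOVL1, ELOVL5 and ELOVL6), 9 were the name of a row among the 24596 features of the deposited table, and SCD is not analysed here. Messenger RNA was sequenced from bovine embryos of day 14, an age at which the flat embryonic disc (ED) can be cut away from the surrounding extraembryonic tissue (EX), which is mainly trophectoderm lined with hypoblast. Oocytes were matured in vitro in 1 of 3 media, fertilised in vitro, and transferred as blastocysts to recipient cows, from which embryos were flushed on day 14. CONTROL medium held neither fatty acids nor solvent. BASAL medium held 23 µM palmitic, 28 µM stearic and 21 µM oleic acid in 0.45% ethanol, and HIGH PA medium held 150 µM palmitic acid with the same stearic acid, oleic acid and ethanol. All embryos therefore share in vitro maturation, fertilisation and culture to the blastocyst stage, and the media differed only before fertilisation.

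The 53 libraries came from 30 embryos and 7 cows: 23 discs (3 CONTROL, 12 BASAL, 8 HIGH PA), 28 extraembryonic samples (4 CONTROL, 14 BASAL, 10 HIGH PA) and 2 undissected HIGH PA embryos (EX+ED). Several embryos came from the same cow, and all CONTROL embryos came from 1 cow, so that CONTROL medium and that cow cannot be told apart. Embryos were also scored by shape as spherical, ovoid or tubular. Exon reads per library numbered 6814 to 6167850 for discs and 9810 to 19533821 for extraembryonic tissue. The libraries ED BASAL 7 (6814 reads) and EX BASAL 7 (9810 reads) stayed in the fits but are left out of every level below, which leaves 22 discs, 27 extraembryonic samples and 22 embryos with both parts.

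De novo synthesis starts when acetyl-CoA carboxylase (ACACA) makes malonyl-CoA, from which fatty acid synthase (FASN) builds palmitate. Elongases of the ELOVL family lengthen the chain in the endoplasmic reticulum; ELOVL6 acts on palmitate and other saturated or monounsaturated chains, ELOVL1 on very long saturated chains, and ELOVL5 on polyunsaturated chains. Stearoyl-CoA desaturases such as SCD5 introduce the first double bond of oleate, and FADS1 and FADS2 are the delta-5 and delta-6 desaturases of polyunsaturated fatty acid synthesis, while the substrate of FADS3 is less settled. The sterol-regulated transcription factor SREBF1 is the classical activator of most of these genes, and palmitate is both the product of FASN and the acid raised in HIGH PA medium.

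Before the genes themselves, libraries that stand apart have to be named. In 7 of the 28 extraembryonic libraries the column name carries a 2 after the tissue code, here called mark 2, which no label explains. Of these 7, 5 were ovoid, 1 spherical and 1 tubular, 3 were BASAL and 4 HIGH PA. Their median share of mitochondrial exon reads was 10.7%, against 4.17% in the other extraembryonic libraries. The disc library ED BASAL 12 was at 0 for SOX2, PRDM14 and NODAL, which mark the epiblast. By the column names, lanes 1 and 2 held 21 disc and 3 extraembryonic libraries, lane 3 held 2 and 8, and lanes 4 and 8 held extraembryonic libraries only. Levels below are exon reads per 1000000 exon reads of the library (CPM). The 5 epiblast markers in the table (of 12 listed) summed to between 64.4 and 399 CPM in discs and between 13.2 and 118 CPM in extraembryonic samples, where SOX2 was at 0 in 26 of 27. The 11 trophectoderm markers (of 12 listed) summed to between 17131 and 37671 CPM in extraembryonic samples and also to between 7559 and 20422 CPM in discs. The 9 hypoblast markers (of 10 listed) summed to between 556 and 2895 CPM in discs and between 329 and 1450 CPM in extraembryonic samples, so neither library type held 1 cell type only. In such bulk samples fewer cells of a type and less RNA per cell cannot be told apart.

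Reads of all 9 genes were found in discs, and in extraembryonic tissue SCD5 alone was near 0. On the scale of CPM per kilobase of exon, which allows genes to be compared, the median level in discs fell in the order ELOVL6 (219), FASN (189), FADS2 (166), ELOVL1 (110), FADS3 (85.9), FADS1 (56.7), ELOVL5 (40.1), ACACA (19.1) and SCD5 (8.14). In extraembryonic tissue the order was FADS2 (235), ELOVL6 (204), FADS3 (126), ELOVL1 (115), FASN (102), FADS1 (60.0), ELOVL5 (23.4), ACACA (17.7) and SCD5 (0). FASN went from rank 2 in discs to rank 5 in extraembryonic tissue, and FADS2 from rank 3 to rank 1. Many neighbours in these orders did not differ beyond their spread: FASN exceeded FADS2 in only 11 of 22 discs, and ELOVL1 exceeded FASN in 15 of 27 extraembryonic samples. In each tissue the steps from ELOVL5 to ACACA and from ACACA to SCD5 exceeded 1 SD, as did that from FADS2 to ELOVL1 in discs; the other neighbours lay within 1 SD of each other.

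**Figure D1:**
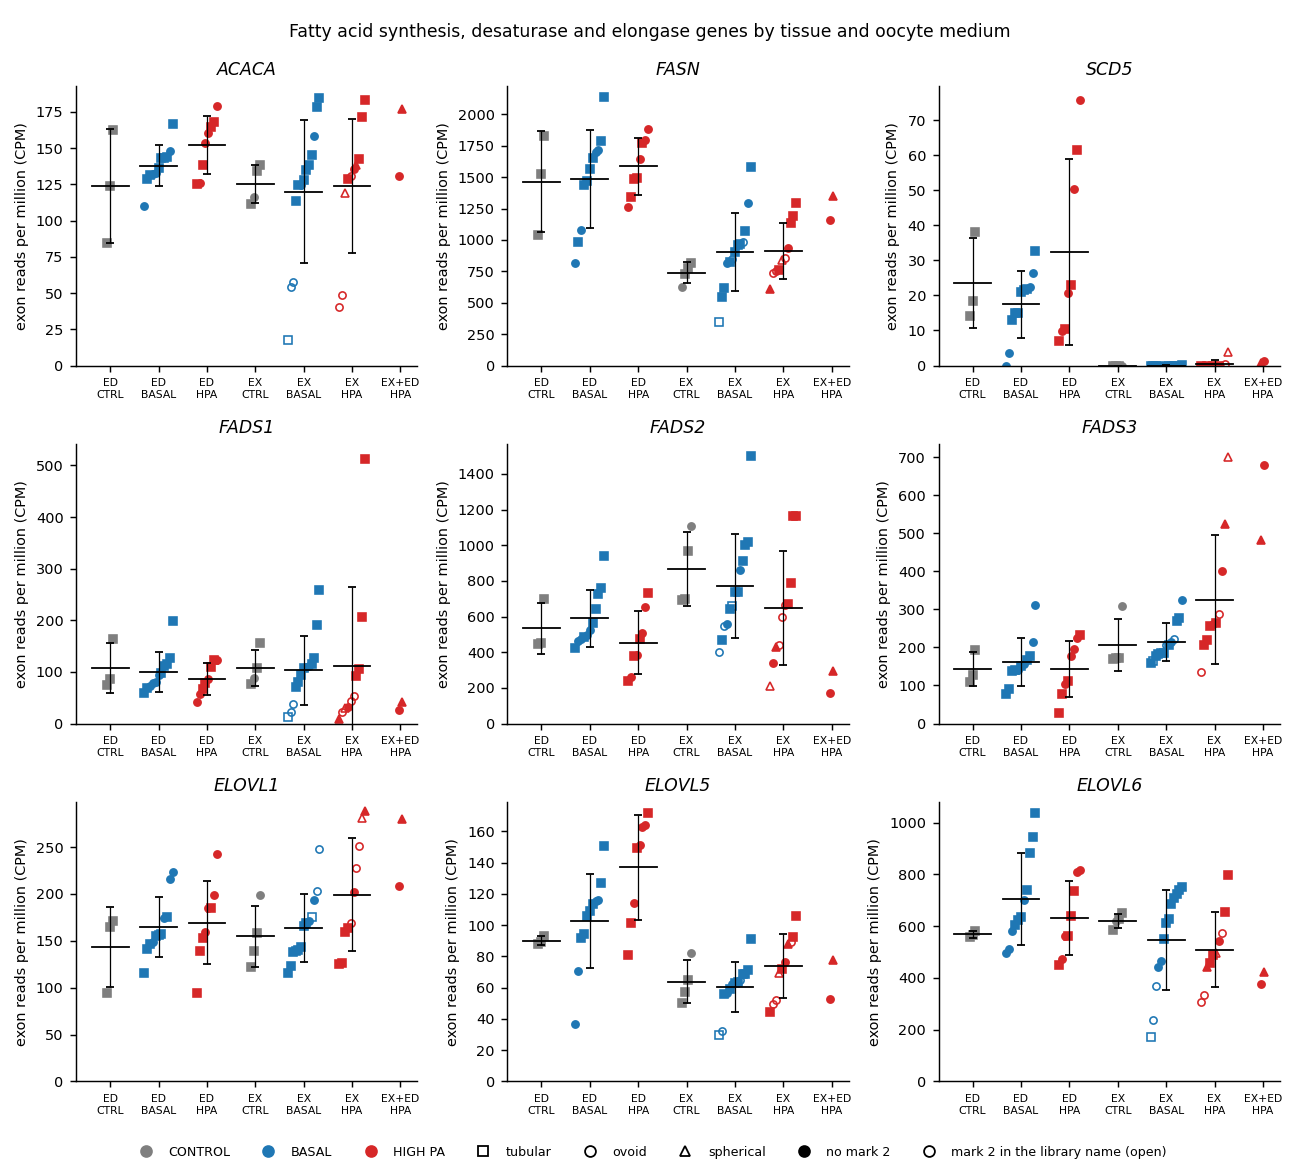
Exon reads per 1000000 (CPM, linear axes from 0) of the 9 genes in each library over 10000 reads, by tissue and medium (CTRL, CONTROL; HPA, HIGH PA); bars are mean ± SD for groups of 3 or more, symbols give embryo shape and open symbols are mark 2 libraries. SCD5 reached 75.8 CPM in discs and was at or near 0 in extraembryonic tissue, and the open symbols hold the lowest ACACA and ELOVL6 values.

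The first comparison asked how disc and extraembryonic tissue of the same embryo differed. Of the 9 genes, 6 differed between the tissues in edgeR's quasi-likelihood F test with the embryo as a block (adjusted p under 0.05): FADS2, FADS3 and ELOVL1 were higher in extraembryonic tissue, and SCD5, FASN and ELOVL5 were lower. Over all 11921 genes tested 55.3% were called, 24.5% higher and 30.8% lower, so a count of 6 of 9, with 3 in each direction, is close to the background. The median log2 fold change of the 9 genes was -0.10, against -0.01 over all genes tested. CPM levels are shares of a library, and the median tested gene was 0.18 log2 units lower in extraembryonic tissue on that scale (range over embryos -1.04 to 0.34), so per-embryo counts below are given relative to that median gene. Both tissues of an embryo were compared within each medium as well, where the background was 41.5% of genes in BASAL embryos, 28.6% in HIGH PA embryos and 31.6% in CONTROL embryos. In those fits SCD5, ELOVL5, FADS2 and FADS3 were called in each medium and FASN in HIGH PA and CONTROL embryos (5 of 9 genes each), while BASAL gave 4 of 9. FASN there had a log2 fold change of nearly the same size as over all embryos (-0.51, adjusted p = 0.054). ELOVL1 was called in none of the 3. SCD5 entered all these fits through its disc reads, as described below, so its calls add no support to its read counts.

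Among the genes of synthesis, both on chromosome 19 (FASN, ENSBTAG00000015980, 51384921 to 51403614; ACACA, ENSBTAG00000017567, 13752491 to 13996058; UMD3.1), FASN fell from disc to extraembryonic tissue. Its level in discs had a lowest value of 814, a median of 1548 and a highest value of 2135 CPM, and in extraembryonic samples 348, 841 and 1577 CPM. The ranges overlap, but within embryos FASN was lower in the extraembryonic part in 21 of 22, relative to the median gene. The fitted log2 fold change was -0.52 (SE 0.12, adjusted p = 0.00049). The exception was the embryo of ED BASAL 2, a disc with 814 CPM of FASN and an epiblast marker sum of 105 CPM, whose extraembryonic part held 1295 CPM of FASN. ACACA, the step before FASN, showed no such difference: discs ran from 84.3 through a median of 141 to 179 CPM, and extraembryonic samples from 17.4 through 131 to 184 CPM. Its log2 fold change was -0.15 (SE 0.16, adjusted p = 0.43), with ACACA higher in the extraembryonic part of 12 embryos and lower in 10. That value rests on the mark 2 libraries: without their embryos, an alternative chosen after seeing the data, the log2 fold change was 0.19 (SE 0.08, adjusted p = 0.040).

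SCD5, a desaturase that makes monounsaturated fatty acids (ENSBTAG00000022449, chromosome 6, 99233278 to 99410753), had the lowest p of the 9 genes. In discs it had a lowest value of 0, a median of 20.9 and a highest value of 75.8 CPM, from 1048 reads in all. In extraembryonic tissue 24 of 27 libraries held no SCD5 read, and the 27 libraries together held 8 reads among 208096954. Those reads were in EX HIGH PA 10 (3.74 CPM), EX HIGH PA 1 (0.53 CPM) and EX BASAL 2 (0.10 CPM). Pooled over libraries this is 0.038 CPM in extraembryonic tissue against 19.8 CPM in discs. SCD5 entered the test between tissues through its disc reads, since it did not pass the filter on low counts in extraembryonic tissue alone. Its adjusted p in edgeR's test (9.9e-21) and its rank by p (11th of 11921 genes) therefore add no support to these read counts. SCD5 was lower in the extraembryonic part of 21 of 22 embryos, the exception being the embryo of ED BASAL 12, where both parts were at 0. The undissected embryos held 0.71 and 1.27 CPM.

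FADS1, FADS2 and FADS3, neighbours on chromosome 29, gave different results. FADS1 (ENSBTAG00000022294, 40940931 to 40952888, UMD3.1), FADS2 (ENSBTAG00000015505, 41045231 to 41082248) and FADS3 (ENSBTAG00000015511, 41087530 to 41102449) lie within 161519 bases, with 5281 bases between FADS2 and FADS3. FADS2 rose from discs (lowest 240, median 491, highest 940 CPM) to extraembryonic samples (212, 694 and 1501 CPM). On the log2 scale this was 0.77 (SE 0.13, adjusted p = 6.3e-06), with a higher level in 19 of 22 embryos. FADS3 rose from 28.8, 146 and 312 CPM to 136, 215 and 701 CPM. Its log2 fold change was 0.88 (SE 0.15, adjusted p = 8.1e-06), with a higher level in 21 of 22 embryos. FADS1 did not pass: it ran from 42.0 through 86.8 to 199 CPM in discs and from 8.82 through 91.9 to 513 CPM in extraembryonic samples, which span its whole disc range and more. Its log2 fold change was 0.03 (SE 0.20, adjusted p = 0.91). Without the embryos of the mark 2 libraries it was 0.42 (SE 0.17, adjusted p = 0.031), so the FADS1 result, like that of ACACA, rests on these libraries.

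Among the elongases ELOVL5 (ENSBTAG00000003359, chromosome 23, 25155742 to 25228997) was lower in the extraembryonic part of each of the 22 embryos. In discs it ran from 36.8 through a median of 111 to 172 CPM, and in extraembryonic samples from 29.6 through 64.8 to 106 CPM. These ranges overlap, and the fit gave -0.56 (SE 0.08, adjusted p = 1.7e-06). ELOVL1 (ENSBTAG00000009813, chromosome 3, 103233546 to 103238303) showed a small rise in edgeR's fit, of 0.23 on the log2 scale (SE 0.08, adjusted p = 0.020). Relative to the median gene it was higher in the extraembryonic part of 16 embryos and lower in 6, while in plain CPM it was higher in 11 and lower in 11. The medians were 158 CPM in discs and 166 CPM in extraembryonic samples, and the call was lost without the embryos of the mark 2 libraries (0.12, adjusted p = 0.21). ELOVL6 (ENSBTAG00000010564, chromosome 6, 16376641 to 16510240) had medians of 614 CPM in discs and 573 CPM in extraembryonic samples and did not pass (log2 fold change -0.10, SE 0.12, adjusted p = 0.53).

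**Figure D2:**
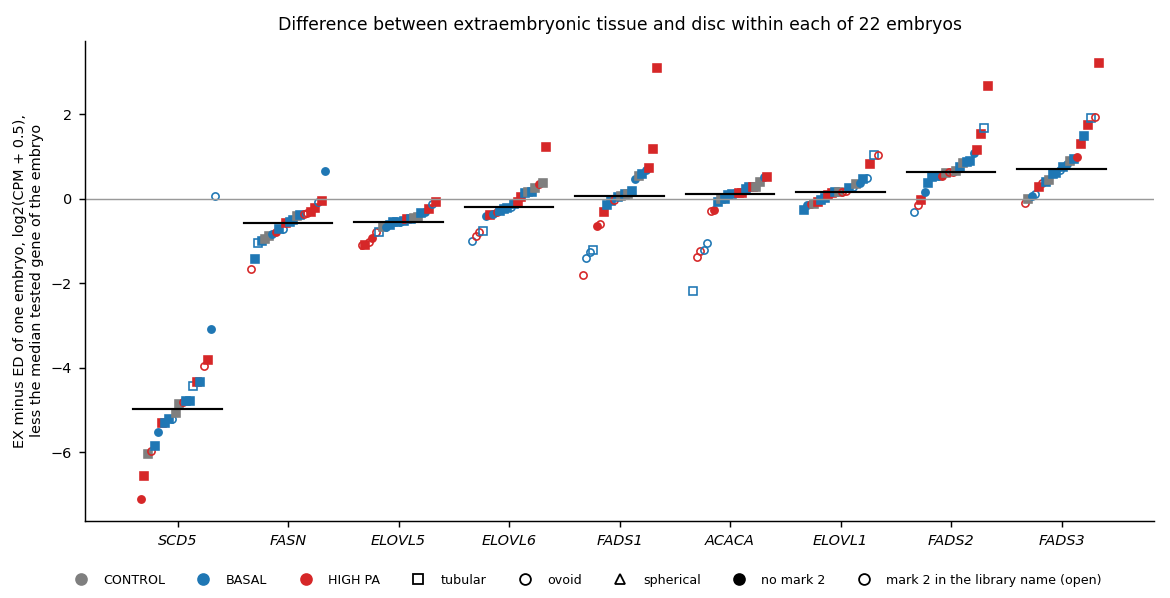
Difference between extraembryonic tissue and disc within each of 22 embryos, as log2(CPM + 0.5) minus the median tested gene of that embryo; horizontal bars are medians, colours are media, symbols embryo shapes and open symbols mark 2 libraries. SCD5 and ELOVL5 lie below 0 apart from 1 embryo for SCD5, FADS2 and FADS3 mostly above 0, and the lowest ACACA and FADS1 differences are open symbols.

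With sequencing lane as a term, added after seeing the data, the calls between the tissues over all genes fell from 6592 to 385. Of the genes described here only SCD5 was called (adjusted p = 0.0010 in edgeR's test). SCD5 entered this fit, too, through its disc reads, so the call adds no support to its read counts. The log2 fold changes of FASN (-0.75), ELOVL5 (-0.70), FADS2 (0.41) and FADS3 (0.66) kept their signs but not their calls. Among the embryos with both parts, which this fit used, only lanes 2 and 3 held both tissues. The overlap was 1 extraembryonic library in lane 2 (EX HIGH PA 5) and 2 discs in lane 3 (ED BASAL 8 and ED CONTROL 3). Lane and tissue could therefore hardly be separated.

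Other genes of the pathway also differed between the tissues, as did 55.3% of all genes (24.5% higher, 30.8% lower). Of 11 tested genes listed under fatty acid precursors and initiation, here called supply genes, 6 fell and 1 rose (median log2 fold change -0.29). The list was broad, and not all of its genes act before FASN. The malic enzyme ME1, a source of NADPH, fell from 51.3 ± 17.5 CPM (SD, n = 22) in discs to 9.52 ± 6.01 CPM (SD, n = 27) in extraembryonic tissue, a log2 fold change of -2.46. ATP citrate lyase (ACLY, -0.73), IDH1 (-0.96) and CBR4 (-0.83) also fell, and MID1IP1 (0.40), a partner of acetyl-CoA carboxylase, rose. Partners of the elongases went largely the other way: of 15 tested, 9 rose and 4 fell (median 0.40). HSD17B12, the ketoacyl reductase of the elongation cycle, rose by 0.93 and the dehydratase HACD3 by 0.47, while the elongases ELOVL4 (-3.66) and ELOVL7 (-0.96) fell. The acyl-CoA synthetases and transporters lay near that background: of 8, 3 rose (SLC27A6, 2.29; ACSL4, 1.03; ACSL3, 0.55) and 3 fell (ACSBG1, -5.42; ACSL1, -1.47; SLC27A1, -0.75).

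Cholesterol synthesis genes, which share control by sterol-regulated factors with FASN, were lower in extraembryonic tissue in 16 of 19 and higher in 0 (median -0.63). Of these, the squalene epoxidase SQLE went from 141 ± 51.4 CPM (SD, n = 22) to 53.0 ± 17.7 CPM (SD, n = 27). Among 26 tested regulators of lipogenesis 6 rose and 7 fell (median 0.01), again near or below the share over all genes. SREBF1 fell by 0.50 (SE 0.11, adjusted p = 0.00024), SREBF2 by 0.44 (SE 0.11, adjusted p = 0.0011), INSIG1 by 0.99 and the liver X receptor NR1H3 by 1.31 on the log2 scale, whereas PPARG rose by 1.53 and MLXIPL did not pass (-0.04, adjusted p = 0.88). With lane as a term 3 of the 19 cholesterol genes and 1 of the 11 supply genes were called, all lower. Without the embryos of the mark 2 libraries the counts were 17 and 7.

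The second comparison asked whether the medium of the oocyte left a difference at day 14. None of the 9 genes in discs and none of the 8 tested in extraembryonic tissue passed edgeR's test in any of 3 contrasts between media; in each contrast 0% of all genes were called (of 11040 in discs and 11114 in extraembryonic tissue). SCD5 was too low for testing in extraembryonic tissue. At an unadjusted p under 0.05 the numbers of these genes were 2 in discs and 1 in extraembryonic tissue for HIGH PA against BASAL, 0 and 0 for BASAL against CONTROL, and 0 and 1 for HIGH PA against CONTROL. DESeq2 also called 0 of them in each contrast. Over all genes the count at an unadjusted p under 0.05 for HIGH PA against BASAL was 1004 in discs and 551 in extraembryonic tissue. The fits of extraembryonic tissue leave out EX HIGH PA 9, whose sex was not determined.

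In discs, the lowest p for HIGH PA against BASAL was that of ELOVL5. Its level was 103 ± 29.9 CPM (SD, n = 11) in BASAL, 137 ± 33.6 CPM (SD, n = 8) in HIGH PA and 90.0 ± 2.89 CPM (SD, n = 3) in CONTROL discs, and the BASAL and HIGH PA ranges overlap (36.8 to 151 and 81.0 to 172 CPM). The 3 CONTROL discs were at 87.8, 89.0 and 93.3 CPM. For HIGH PA against BASAL the log2 fold change was 0.51 (SE 0.19, 95% interval 0.12 to 0.89, adjusted p = 0.50). SCD5 followed, with 0.0, 21.1 and 32.8 CPM as the lowest, median and highest of 11 BASAL discs and 7.05, 21.8 and 75.8 CPM of 8 HIGH PA discs; the CONTROL discs were at 14.0, 18.4 and 38.1 CPM. Its log2 fold change was 1.13 (SE 0.48, 95% interval 0.14 to 2.13, adjusted p = 0.51), while the medians were nearly equal. The lowest BASAL values of ELOVL5 and SCD5 both belong to ED BASAL 12, the disc at 0 for SOX2, PRDM14 and NODAL. Without its embryo 660 of all genes had an unadjusted p under 0.05 in edgeR's test of this contrast, against 1004 with it. The highest SCD5 values were those of ED HIGH PA 1, 3 and 5, at 75.8, 61.4 and 50.4 CPM, the last from only 119116 exon reads. Their epiblast marker sums were 283, 399 and 353 CPM, above the disc median of 197 CPM; the part of these markers in the result was not tested. With the recipient cow as a block the SCD5 value was 0.32 (adjusted p = 1.0). FASN differed little between the media in discs, with 1464 ± 400 CPM (SD, n = 3) in CONTROL, 1486 ± 390 CPM (SD, n = 11) in BASAL and 1585 ± 224 CPM (SD, n = 8) in HIGH PA. The interval of its HIGH PA minus BASAL log2 fold change, -0.29 to 0.53, is the range these discs leave.

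In extraembryonic tissue FADS3 had the lowest p. It was at 206 ± 68.6 CPM (SD, n = 4) in CONTROL, 214 ± 49.2 CPM (SD, n = 13) in BASAL and 326 ± 170 CPM (SD, n = 10) in HIGH PA. Of the 4 CONTROL samples 3 were at 171, 173 and 173 CPM and the ovoid one at 309 CPM. For HIGH PA against BASAL the FADS3 log2 fold change was 0.47 (SE 0.16, 95% interval 0.14 to 0.81, adjusted p = 0.73), and against CONTROL 0.58 (SE 0.24, adjusted p = 0.48). The highest 2 values of HIGH PA, 701 and 524 CPM, belong to the spherical embryos, a shape found in no other medium, and the sample at 524 CPM is EX HIGH PA 9, which was not in the fit. The contrasts with CONTROL share the CONTROL samples. FASN was at 739 ± 82.6 CPM (SD, n = 4), 904 ± 314 CPM (SD, n = 13) and 912 ± 225 CPM (SD, n = 10) in CONTROL, BASAL and HIGH PA, with a HIGH PA minus BASAL interval of -0.28 to 0.32. FADS1 was too variable for a narrow bound: its interval for the same contrast ran from -0.86 to 1.22, and its HIGH PA samples from 8.82 to 513 CPM. The sample at 8.82 CPM is again EX HIGH PA 9, which held 340016 exon reads and was not in the fit. In the paired fit the HIGH PA effect differed between the tissues for 0 of 9 genes (0% of 11921 genes called); 0 of the 9 and 366 of all genes had an unadjusted p under 0.05, and DESeq2 called 0 of the 9.

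SREBF1 was ordered by medium in each tissue without passing the test. In discs it was at 67.3 ± 26.6 CPM (SD, n = 3) in CONTROL, 91.9 ± 17.6 CPM (SD, n = 11) in BASAL and 130 ± 31.6 CPM (SD, n = 8) in HIGH PA. In extraembryonic tissue these values were 39.5 ± 5.94 (SD, n = 4), 63.0 ± 33.3 (SD, n = 13) and 85.5 ± 27.5 CPM (SD, n = 10). HIGH PA discs (lowest 103 CPM) did not overlap the 3 CONTROL discs (highest 91.1 CPM), which all came from 1 cow. How many of all genes separated these discs in this way was not counted. The log2 fold changes of HIGH PA against CONTROL were 0.86 in discs (SE 0.26, adjusted p = 1.0) and 1.18 in extraembryonic tissue (SE 0.32, adjusted p = 0.48), and those of HIGH PA against BASAL were 0.47 and 0.46. In the other pathway lists 0 genes were called in any contrast of media. For HIGH PA against BASAL the gene of lowest p in discs was MECR among supply genes (0.41), HACD2 among elongation partners (-0.32), ACSL1 among acyl-CoA synthetases (0.54), PRKAB1 among regulators (-0.55) and SQLE in cholesterol synthesis (0.37). In extraembryonic tissue these were IDH1 (0.62), FADS6 (0.98), ACSL1 (0.51) and SREBF1 in the first 4 of these lists. Of the cholesterol genes 16 of 19 had a log2 fold change above 0 in discs (median 0.10) and 0 of 18 in extraembryonic tissue (median -0.25), against 5634 of 11040 and 5527 of 11114 of all genes, and the difference between the tissues was not tested for the list.

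**Figure D3:**
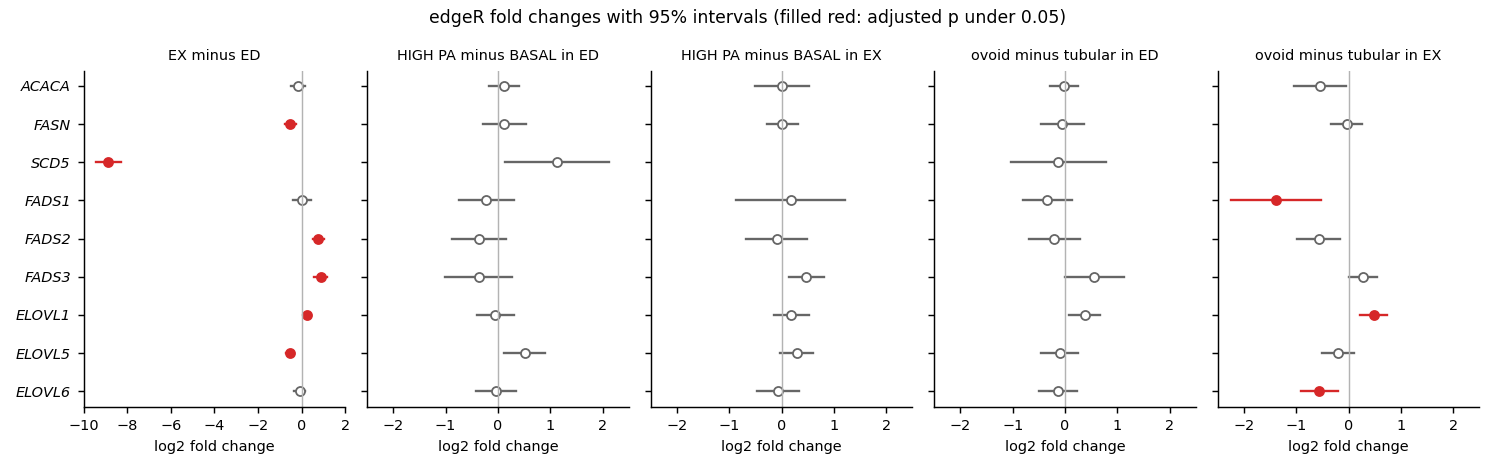
edgeR log2 fold changes of the 9 genes with 95% intervals in 5 comparisons, filled red where the adjusted p was under 0.05; the first panel has a wider axis for SCD5, which was not tested in extraembryonic tissue alone. Called genes appear between the tissues (6) and between shapes in extraembryonic tissue (3), and none between media.

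The third comparison set ovoid against tubular embryos. In discs 0 of 9 genes passed (0% of 11040 genes called by edgeR; 1 of the 9 and 806 of all genes at an unadjusted p under 0.05; DESeq2 called 16 genes, 0 of them among the 9). In extraembryonic tissue 3 of 8 passed, against 11.4% of 11880 genes (5.94% higher and 5.41% lower in ovoid embryos): ELOVL1 was higher in ovoid embryos, and FADS1 and ELOVL6 were lower. The median log2 fold change over the 8 genes was -0.38, against 0.00 over all genes tested. The 3 genes were not called with cow as a block, with lane or mark 2 as a term, or without the mark 2 libraries, under which 1.7% of genes were called. With cow as a block the log2 fold changes were nearly as large for ELOVL1 (0.46) and ELOVL6 (-0.51) and -1.06 for FADS1, and with lane as a term they were 0.40, -0.54 and -0.65. With mark 2 as a term they were 0.24, -0.25 and -0.52. Shape is hard to separate from mark 2 here, since 5 of the 9 ovoid but only 1 of the 16 tubular extraembryonic libraries over 10000 reads carry it.

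Of the genes described here, ELOVL1 had the lowest p between shapes in extraembryonic tissue. It ran from 169 through a median of 202 to 251 CPM in 9 ovoid samples and from 115 through 140 to 176 CPM in 16 tubular samples, with 281 and 288 CPM in the 2 spherical samples. The log2 fold change of ovoid against tubular was 0.48 (SE 0.12, adjusted p = 0.020). Among libraries without mark 2, 4 ovoid samples (172 to 202 CPM) lay above all 15 tubular samples (115 to 169 CPM). How many of all genes separated these samples in this way was not counted. In edgeR's fit without mark 2 libraries the ELOVL1 log2 fold change was 0.35 (SE 0.10, adjusted p = 0.059). There 2530 of 11188 genes had an unadjusted p under 0.05. Discs went the same way without passing: 193 ± 32.4 CPM (SD, n = 8) in ovoid and 146 ± 27.8 CPM (SD, n = 14) in tubular embryos, which is 0.37 on the log2 scale (SE 0.15, unadjusted p = 0.016 and adjusted p = 0.61 in edgeR).

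FADS1 was lower in ovoid embryos, with overlapping ranges. Its 9 ovoid samples had 21.9, 43.4 and 112 CPM as lowest, median and highest, its 16 tubular samples 11.8, 108 and 513 CPM, and its spherical samples 8.82 and 30.9 CPM. The log2 fold change was -1.39 (SE 0.42, adjusted p = 0.036). All 7 mark 2 libraries lay at or below 52.5 CPM, and without them the value was -0.86 (SE 0.49, adjusted p = 0.29). FADS2 had the same direction and did not pass (log2 fold change -0.57, SE 0.20, adjusted p = 0.059), though it was called by DESeq2 (-0.58, adjusted p = 0.039) and by edgeR without the libraries under 10000 reads (-0.61, adjusted p = 0.045), with 613 ± 240 CPM (SD, n = 9) in ovoid and 864 ± 261 CPM (SD, n = 16) in tubular samples. FADS3, the nearest neighbour of FADS2, had the opposite sign (0.27, SE 0.13, adjusted p = 0.14). Without the mark 2 libraries its value was 0.50 (SE 0.13, adjusted p = 0.052).

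In the spherical and undissected embryos FADS3 was high, while FADS1 and FADS2 lay low but within the range of the other libraries in part. FADS3 was at 524 and 701 CPM in the spherical samples and at 482 and 680 CPM in the undissected embryos, above every other library (highest 400 CPM). How many of all genes were highest in these libraries was not counted. In the same order the libraries held 340016, 1068407, 1407380 and 3138755 exon reads. Their shares of intron reads were 10.5%, 11.2%, 12.9% and 7.89%, against a median of 7.20% in extraembryonic samples. FADS2 was at 429 and 212 CPM in the spherical samples and 295 and 172 CPM in the undissected ones, and FADS1 at 8.82 and 30.9, and 41.2 and 25.5 CPM. With 2 samples of each kind, 1 of the undissected embryos being spherical and 1 ovoid, and all from HIGH PA oocytes, no test was made.

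ELOVL6 was lower in ovoid samples (239, 443 and 620 CPM as lowest, median and highest, n = 9) than in tubular ones (173, 640 and 799 CPM, n = 16), which is -0.56 on the log2 scale (SE 0.17, adjusted p = 0.038). Without the mark 2 libraries the value was -0.42 (SE 0.16, adjusted p = 0.14). ACACA gave -0.55 (SE 0.24, adjusted p = 0.12). It was between 17.4 and 57.6 CPM in 5 of the 7 mark 2 libraries and between 111 and 184 CPM in every extraembryonic library without the mark. Those 5 libraries had between 5.75% and 20.9% mitochondrial exon reads. Over 27 extraembryonic samples ACACA fell with this share (r = -0.87, permutation p = 1e-05, adjusted p = 0.00025, rho = -0.56). FADS1 (r = -0.67), ELOVL6 (-0.71) and FASN (-0.56) also passed by r, while ELOVL1 alone had an r above 0 (0.34). Without the mark 2 libraries these r were, in that order, -0.17, -0.38, 0.16, -0.44 and 0.09. The part of mitochondrial reads in the difference between shapes was not tested. With mark 2 as a term the ACACA difference between shapes was 0.06 (SE 0.20, adjusted p = 0.94). FASN did not follow: its shape difference was -0.04 (SE 0.14, adjusted p = 0.88), and mark 2 libraries had a median of 841 CPM against 863 CPM in the others.

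**Figure D4:**
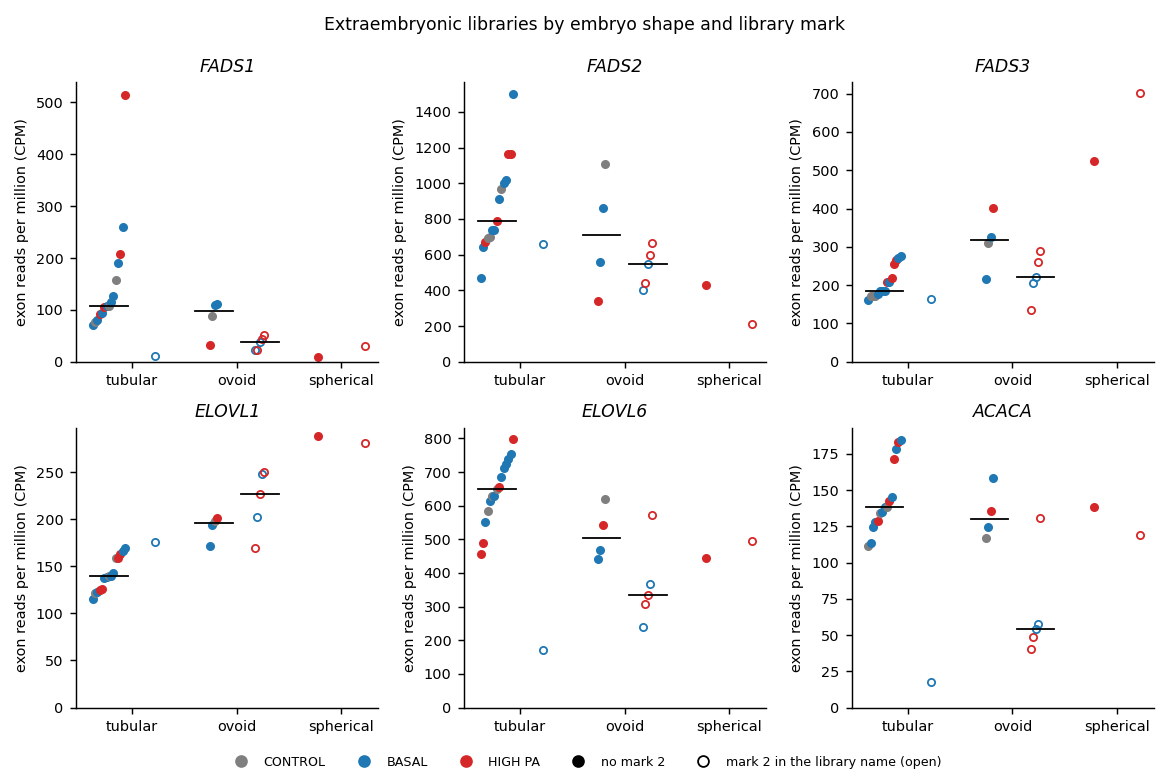
Extraembryonic CPM (linear axes from 0) of 6 genes by embryo shape; filled points are libraries without mark 2, open points mark 2 libraries set to the right, colours are media and bars are medians of 3 or more. ELOVL1 of the filled ovoid points lies above all filled tubular points, and FADS3 is highest in the spherical samples. How many of all genes separate the samples in these ways was not counted. The lowest ACACA, ELOVL6 and FADS1 values of tubular and ovoid embryos are open points.

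In the pathway lists 13 genes were lower and 3 higher in ovoid than in tubular extraembryonic tissue, beside 5.41% lower and 5.94% higher over all genes; with cow as a block or lane as a term 0 genes were called in these lists and over all genes. Of 15 elongation partners 3 were lower and 0 higher (HSD17B12, -1.11; HACD2, -0.68; CYB5R4, -0.51), of 10 acyl-CoA synthetases 3 were lower and 0 higher (SLC27A6, -2.89; ACSL3, -0.83; ACSL4, -0.61), and of 19 cholesterol genes 5 were lower and 0 higher, among them HMGCS1 (-0.90) and HSD17B7 (-0.61). Among 27 regulators INSIG2 (-0.76) and PPARG (-1.33) were lower, and MLXIPL (0.84) and NR1H2 (0.54) higher. MCAT (0.37) was the 1 supply gene called of 11. Without the mark 2 libraries 1 elongation partner was called and 0 genes of the other lists. Of 11 tested trophectoderm markers 2 were higher and 3 lower in ovoid embryos, and of 8 hypoblast markers 3 were higher and 0 lower; their part in these results was not tested.

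The difference between shapes was not shown to differ between the tissues. In the paired fit 0 of 9 genes passed (0% of 11921 genes called), 2 had an unadjusted p under 0.05 (FADS1, -0.98, and FADS2, -0.59), 1707 of all genes did, and DESeq2 called 0 of the 9.

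Genes were then compared with each other across embryos, as log2(CPM + 0.5). Over 22 embryos the level of a gene in the disc was related to its level in the extraembryonic part for ELOVL1 (r = 0.64, permutation p = 0.0015; rho = 0.70, permutation p = 0.00042) and ELOVL5 (r = 0.63, permutation p = 0.0020; rho = 0.52, permutation p = 0.013), both with an adjusted p of 0.0081 for r over 8 genes. Within BASAL and HIGH PA embryos r was 0.61 and 0.64 for ELOVL1, and 0.67 and 0.44 for ELOVL5. Without the 2 embryos farthest from the median in the disc it was 0.57 and 0.48. For ELOVL5, rho did not pass the adjustment (adjusted p = 0.052). Shape was not held fixed in these relations. Mean ELOVL1 was 193 CPM in ovoid and 146 CPM in tubular discs, and 207 and 144 CPM in ovoid and tubular extraembryonic samples. FADS1 gave r = 0.44 (permutation p = 0.043, adjusted p = 0.11), and FASN r = 0.00 (permutation p = 1.0).

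In discs 2 of 36 pairs of genes were related by r. SCD5 went with ELOVL5 (r = 0.87, permutation p = 1e-05, the smallest these permutations can give; rho = 0.72, permutation p = 0.00028; adjusted p of r 0.00036). Without the 2 discs farthest from the median r was 0.66, and it was 0.95 in BASAL and 0.86 in HIGH PA discs. FADS1 went with FADS2 (r = 0.79, permutation p = 2e-05; rho = 0.87, permutation p = 1e-05; adjusted p of r 0.00036), with r = 0.94 in BASAL and 0.67 in HIGH PA discs and 0.76 without the 2 farthest. Marker sums moved with the first pair. Over 22 discs r with the summed epiblast markers was 0.86 for SCD5 (rho 0.84), 0.74 for ELOVL5 (rho 0.65), 0.67 for FASN (rho 0.68) and -0.54 for FADS3 (rho -0.46), with permutation p of 1e-05, 7e-05, 0.00058 and 0.0095 for r, adjusted over 51 relations to 0.00025, 0.00089, 0.0037 and 0.034. Without the 2 discs farthest from the median of the gene these r were 0.83, 0.55, 0.66 and -0.34, and the rho of FADS3 did not pass (adjusted p = 0.12). FADS2 went with the trophectoderm markers (r = 0.70, permutation p = 0.00031, adjusted p = 0.0023; rho = 0.64; 0.54 without 2 discs). By r FADS3 (0.62), SCD5 (-0.59) and ELOVL5 (-0.56) also passed with the trophectoderm sum in discs, with 0.14, -0.73 and -0.60 without 2 discs. Over 27 extraembryonic samples FADS3 instead rose with the epiblast sum (r = 0.63, adjusted permutation p = 0.0069). Its r was 0.63 without the mark 2 libraries as well. ACACA (0.76), FASN (0.52), ELOVL6 (0.51) and ELOVL5 (0.50) also passed there by r, and had 0.15, 0.33, -0.66 and -0.26 without that mark. ED BASAL 12, at 0 for 3 of the 5 epiblast markers, had the lowest ELOVL5 (36.8 CPM) and no SCD5 read. The share of epiblast cells in each disc was not measured.

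**Figure D5:**
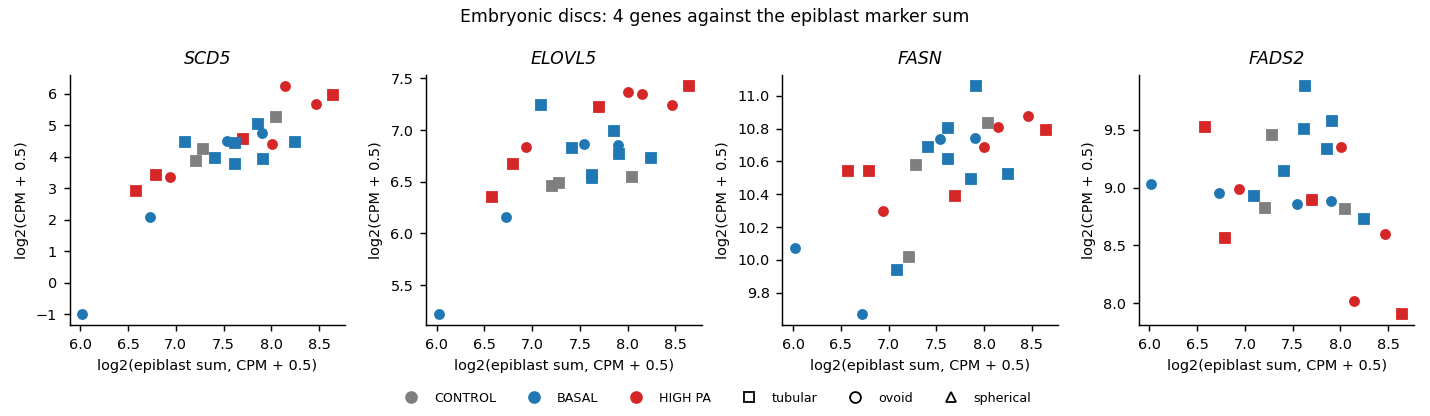
Levels of SCD5, ELOVL5, FASN and FADS2 in 22 discs against the sum of 5 epiblast markers, both as log2(CPM + 0.5); colours are media and symbols embryo shapes. SCD5, ELOVL5 and FASN rise along the axis (r = 0.86, 0.74 and 0.67), and the disc at the lower left of the SCD5 panel is ED BASAL 12.

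In extraembryonic tissue 13 of 28 pairs were related by r over 27 samples, but several of these rest on the mark 2 libraries. ACACA with ELOVL6 had r = 0.87 (permutation p = 1e-05, adjusted p = 0.00014; rho = 0.53), and 0.22 in the 20 samples without the mark; ELOVL5 with ELOVL6 (r = 0.67, permutation p = 0.00034) went to 0.12, and ACACA with ELOVL5 (r = 0.63, permutation p = 0.00098) to -0.10. Other pairs were as close without these libraries. FADS1 with ELOVL1 had r = -0.76 (permutation p = 1e-05, adjusted p = 0.00014; rho = -0.71), which was -0.74 without the mark, -0.61 in BASAL, -0.90 in HIGH PA and -0.77 without the 2 farthest samples. Both genes were called between shapes, with opposite signs, and shape was not held fixed in any of these relations. FADS3 with ELOVL1 had r = 0.67 (permutation p = 0.00014, adjusted p = 0.00078; rho = 0.55) and 0.81 without the mark, though 0.27 within BASAL and 0.45 without the 2 farthest samples. FADS1 with FADS2 had r = 0.64 (permutation p = 0.00035, adjusted p = 0.0012; rho = 0.67) and 0.68 without the mark. FASN with ACACA had r = 0.57 (permutation p = 0.0031, adjusted p = 0.0088; rho = 0.56) and 0.74 without the mark, but 0.22 without the 2 samples farthest from the median of FASN.

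FASN in extraembryonic tissue went with SREBF1 (r = 0.71, permutation p = 3e-05, adjusted over 51 relations p = 0.0015; rho = 0.71). This was 0.76 without the mark 2 libraries, 0.85 within BASAL, 0.54 within HIGH PA and 0.59 without the 2 farthest samples. ACACA with SREBF1 had r = 0.24 over the same samples (permutation p = 0.22, adjusted p = 0.39; rho = 0.39), but 0.74 without the mark 2 libraries, close to the value of FASN. Of the 51 relations with SREBF1, SREBF2 and INSIG1, 10 passed by r. SREBF2 went with ACACA (r = 0.77, permutation p = 6e-05, adjusted p = 0.0015; rho = 0.64; r 0.67 without the mark and 0.50 without the 2 farthest samples). In the same tissue SREBF2 also went with FASN (r = 0.68, permutation p = 0.00044, adjusted p = 0.0056; rho = 0.45), FADS1 (r = 0.60, permutation p = 0.00068, adjusted p = 0.0069; rho = 0.55) and ELOVL6 (r = 0.62, permutation p = 0.0023, adjusted p = 0.015; rho = 0.39). Without the mark these r were 0.49, 0.50 and 0.16, and without the 2 farthest samples 0.39, 0.56 and 0.40. In discs SREBF2 went with SCD5 (r = 0.75, permutation p = 0.00013, adjusted p = 0.0022; rho = 0.60), FASN (r = 0.66, permutation p = 0.0011, adjusted p = 0.0093; rho = 0.63) and ELOVL5 (r = 0.56, permutation p = 0.0078, adjusted p = 0.040; rho = 0.39), with 0.58, 0.60 and 0.21 without the 2 farthest discs. INSIG1, which retains the SREBF proteins in the endoplasmic reticulum, went with FASN in discs (r = 0.66, permutation p = 0.0013, adjusted p = 0.0093; rho = 0.48) and with FADS1 in extraembryonic tissue (r = 0.54, permutation p = 0.0029, adjusted p = 0.017; rho = 0.43). Without the 2 farthest samples these were 0.58 and 0.29. All these values share the library as a common denominator.

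The genes most like a given gene across libraries are given as a description. Over 27 extraembryonic samples and 8741 genes, FASN was most like PPM1F (r = 0.82), FUT4 (0.80) and KIF1A (0.79), and FADS2 most like TMEM150B (0.88), FAM213A (0.88) and the unnamed ENSBTAG00000006140 (0.88). ELOVL6 was most like MINPP1 (0.94), TRAM1 (0.93) and SCYL2 (0.93), values that were 0.68, 0.73 and 0.69 without the mark 2 libraries. Over 22 discs and 9684 genes SCD5 was most like MMP2 (r = 0.96), PDZD4 (0.96) and LY6E (0.96).

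The reads themselves differed between the genes. Intron reads made up 12.8% of the exon and intron reads of FADS1 in discs and 12.0% in extraembryonic tissue, but 1.62% and 1.56% of those of FADS2 and 2.65% and 2.35% of those of FASN. The exon reads of all 9 genes were uniquely placed to at least 99.9% by the deposited columns.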

How the data were processed

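Per the labels' protocols, total RNA was made into stranded mRNA libraries (TruSeq) and sequenced as paired reads, and groups, shapes, sexes and cows were taken from the labels. In the table the authors deposited, each library has whole-number counts of exon reads (used for every test), of uniquely placed exon reads (an alternative) and of intron reads (quality only), and the authors' RPKM, which was not tested. Per the submitters' processing notes DESeq2 (1.10.1) and the UMD3.1 build were used; no aligner is named in the sources read. The exon length and coordinates of each gene are those of the deposited table.

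Counts were tested with edgeR 4.0.16, using TMM scaling, the default filter on low counts and the quasi-likelihood F test, in R 4.3.3. Tissues were compared with the embryo as a block, because both parts come from the same embryo per the labels; replicate numbers follow accession order and pair nothing. Media and shapes were compared within a tissue with sex as a term, and shape also with medium. P-values were adjusted over all genes tested (Benjamini-Hochberg) and called under 0.05. Each SE was taken from the fold change and its F value. Since several embryos share a cow, the p-values describe the spread among these embryos and no more. CPM is the count per 1000000 exon reads, and means leave out libraries under 10000 reads. Correlations used log2(CPM + 0.5) and 100000 permutations (two-sided, Python 3.11.15); figures used matplotlib 3.10.9. Tests were tried on simulated data. The precision of a level is limited by depth, which was lowest in discs (119116 exon reads among those kept).

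All 9 genes are named; from each pathway list the called genes of lowest p are named, or, between media, the gene of lowest p, with SREBF1, SREBF2, INSIG1, NR1H3 and MLXIPL. The genes, lists and tests were chosen with earlier results of these data known. Relations of the genes with marker sums, mitochondrial share and regulators, and the alternatives with mark 2 and lane, were chosen after seeing the data. Other alternatives were DESeq2 1.42.0, its size factors in edgeR, no filter, uniquely placed reads, no low libraries, cow as a block, males only, a shape term, leaving out sex, single media, no embryo block and each CONTROL replicate left out. No sequences are given, and some genes of the cholesterol list are not reported here by name. All 1378 pairs of libraries were compared and 0 were identical.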

Additional observations from a re-analysis of the deposited data

Results flagged for a closer look

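In 26 sets of values of these genes, each of 4 to 10 libraries, 3 values stood apart from the rest of their group by Dixon's criterion at 95%, for which chance gives about 1 in 20 groups. FADS1 was at 513 CPM in EX HIGH PA 7, against 207 CPM in the next of 10 HIGH PA samples, a gap of 0.61 of the range. FADS3 was at 309 CPM in EX CONTROL 4, the 1 ovoid embryo among 4 CONTROL samples, against 173 CPM in the next. SCD5 was at 3.74 CPM in EX HIGH PA 10, a spherical embryo, against 0.53 CPM in the next of 10; this value rests on 4 reads.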

How the results depend on the processing

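Of the 11 comparisons of tissues, media and shapes, 9 gave a count of called genes, among the 9 described, within 1.5 times that reported, or 0 again, under every alternative run. Between the tissues 6 of 9 genes were called, and 6 without the embryo block (no pairing of the parts), 6 with each CONTROL embryo left out (lowest and highest 6), but 1 with lane as a term; lane and tissue are nearly the same there. Without the embryos of the mark 2 libraries ACACA turned from -0.15 to 0.19 (adjusted p = 0.040); the cause was not tested. Between shapes in extraembryonic tissue 3 of 8 genes were called, but 1 without CONTROL libraries (ELOVL1; fewer samples), where FADS1 (-1.50, adjusted p = 0.058) and ELOVL6 (-0.62, adjusted p = 0.060) had larger fold changes than reported, and 0 with cow as a block, with mark 2 as a term, without the mark 2 libraries (fewer samples), or with lane as a term; the cause was not tested. Over all genes, the count between shapes in extraembryonic tissue was 1349 (706 higher), and 997 (367 higher) with DESeq2, 475 without CONTROL libraries, 190 without the mark 2 libraries, 21 with mark 2 as a term and 0 with cow or lane in the fit; that between the tissues was 6592, and 385 with lane as a term. Where edgeR called 0 of all genes, the difference of the shape effect between tissues gave 67 with DESeq2, 24 without the filter and 3 without the embryo of ED BASAL 12; shape in discs gave 16 with DESeq2; HIGH PA against BASAL gave 4 in discs and 9 in extraembryonic tissue without the filter, and in extraembryonic tissue 2 with uniquely placed reads, 2 with mark 2 as a term and 1 without the mark 2 libraries; BASAL against CONTROL in extraembryonic tissue gave 1 with DESeq2. Relations of a gene between tissues numbered 2 and those between genes 15 under each pseudocount, and 2 and 11 had an r of the same sign and at least 0.4 in size without the 2 farthest samples. Among alternative values of single genes 940 held, 81 moved without a call, 24 lost a call, 3 gained one and 1 reversed. With 8 reads among 208096954, SCD5 was too low in extraembryonic tissue to be tested between media or shapes.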
